A study of Mus musculus with 12 samples.

Results

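The 10 genes described here are widely used readouts of endoplasmic reticulum (ER) stress: Hspa5, Calr, Pdia4, Sdf2l1, Dnajb9, Herpud1, Xbp1, Atf4, Ddit3 and Trib3. They were chosen by symbol, and all 10 were found among the 46517 gene identifiers counted. RNA was measured by SMART-seq2, a full-length method for small inputs, in intestinal epithelial cells (IECs) of the colon of C57BL/6 mice aged 7 to 9 weeks. Wild-type mice (WT) and Nfkb2-/- mice (KO) were either untreated or had received dextran sulfate sodium for 48 h (DSS, a chemical widely used to model colitis because it damages the gut lining). This gave 4 groups of 3 biological replicates. Nfkb2 encodes the NF-kB subunit precursor p100. The labels state neither the DSS dose nor whether a replicate was 1 mouse or a pool, and they name no cell type to which the deletion was limited. IECs were detached from colon pieces with 30 mM EDTA, and about 90% were typically CD45.2-EpCAM+ in flow cytometry, so the groups are mixtures of epithelial cell types with some other cells.

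The unfolded protein response restores the balance between the proteins entering the ER and its folding capacity. The sensors IRE1, PERK and ATF6 are held inactive by the chaperone BiP and act when unfolded proteins accumulate. IRE1 splices the Xbp1 mRNA, ATF6 is cleaved to an active transcription factor, and PERK phosphorylates eIF2α, which lowers general translation and favours translation of Atf4. In the colon the response is known for its part in secretory cells such as goblet cells, which fold large amounts of mucin.

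Library totals were 5595909 to 8117740 counts. Nfkb2 itself, the check of the genotype labels, was at 39.7 ± 5.56 CPM (counts scaled to a common library size; SD, n = 6) in WT and 15.9 ± 2.81 CPM (SD, n = 6) in KO, or 40.1% of WT, and the genotypes did not overlap (exact two-sided permutation p = 0.002165, the smallest this design gives). KO libraries still held 87 to 143 Nfkb2 counts each. The submitters' library numbers place all WT before all KO libraries, so the genotype and that order cannot be told apart, whereas untreated and DSS libraries alternate. Epcam averaged 2891, 2802, 2706 and 2543 CPM in untreated WT, DSS WT, untreated KO and DSS KO.

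The promoter sequences of Hspa5, Calr and Herpud1 are shown because these genes passed a test below and carry complete matches to motifs of the response. The sequences are from RefSeq (GRCm38.p6), 250 bases ending just before the start of each gene in RefSeq, 5′ to 3′ on the gene's strand, with the letters of the matched motif in capitals. Positions are counted from that start, whereas the gene coordinates given with the values are those of GENCODE M21, whose starts can differ. The GENCODE gene of Hspa5 starts at 34771970, ahead of the RefSeq start at 34772090, so 120 of its 250 bases lie inside the GENCODE gene. For Calr this holds for 3 bases and for Herpud1 for 0. Hspa5 lies on the plus strand (chr2:34771840-34772089), Calr on the minus strand (chr8:84846932-84847181) and Herpud1 on the plus strand (chr8:94386179-94386428).
Hspa5: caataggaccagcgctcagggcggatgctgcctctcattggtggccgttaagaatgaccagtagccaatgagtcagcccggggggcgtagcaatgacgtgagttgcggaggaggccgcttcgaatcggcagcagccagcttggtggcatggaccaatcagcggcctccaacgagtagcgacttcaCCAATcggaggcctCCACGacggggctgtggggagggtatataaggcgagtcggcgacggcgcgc
Calr: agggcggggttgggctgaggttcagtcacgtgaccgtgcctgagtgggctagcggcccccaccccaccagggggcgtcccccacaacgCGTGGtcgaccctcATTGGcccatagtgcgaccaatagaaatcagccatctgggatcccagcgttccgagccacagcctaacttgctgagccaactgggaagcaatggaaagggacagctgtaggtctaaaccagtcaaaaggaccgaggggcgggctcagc
Herpud1: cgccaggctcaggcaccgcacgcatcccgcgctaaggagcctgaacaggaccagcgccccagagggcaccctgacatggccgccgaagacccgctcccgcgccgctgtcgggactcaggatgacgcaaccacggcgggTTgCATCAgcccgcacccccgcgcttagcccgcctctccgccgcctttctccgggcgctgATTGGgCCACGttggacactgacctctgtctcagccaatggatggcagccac
The capitals in Hspa5 and Calr mark the ER stress response element (ERSE: CCAAT, 9 bases of any kind, then CCACG). Its first base as printed lay at -65 in Hspa5 and at -162 in Calr, where the motif is on the opposite strand. The capitals in Herpud1 mark the related element ERSE-II (ATTGG, 1 base of any kind, then CCACG) at -52. Upstream of it, on the opposite strand at -112, they mark the ATF4/CHOP composite element (TGATGNAA). These positions too are those of the first base as printed.

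Both strands of the window from 250 bases before to 50 bases after the start were searched, and RefSeq windows were matched for all 10 genes. For Dnajb9 all 250 upstream bases lay inside the GENCODE gene, and for Ddit3 19 did. The lack of a match in the Dnajb9 window therefore does not describe sequence upstream of its GENCODE start. ERSE was present in 0.119% of all 32851 windows and in Hspa5 and Calr among the 10. ERSE-II was present in 0.0365% of windows and in Herpud1. The composite element was present in 3.97% of windows and in Herpud1 and Trib3. The core of the unfolded protein response element (TGACGTGG), found in 0.676% of windows, was in none of the 10. The short sequence CCACG, which ERSE and ERSE-II contain and which the complement of the last motif also contains, was in 7 of the 10 and in 32.8% of all windows. These matches describe letters in these windows only.

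In untreated WT cells the 10 genes covered a wide range of levels. Per kilobase of annotated exon, Hspa5 was highest at 208 CPM per kb. Calr, at 139 CPM per kb, and Pdia4, at 119 CPM per kb, followed with overlapping samples. Xbp1 came next at 93.7 CPM per kb, then Atf4 at 64.3 and Herpud1 at 61.5 CPM per kb, which overlapped. Sdf2l1, Dnajb9 and Ddit3 were lower at 47.1, 37.2 and 5.08 CPM per kb, with no overlap between neighbours. After DSS in WT, Herpud1 stood above Atf4 (96.6 against 72.5 CPM per kb), and Xbp1 at 128 CPM per kb overlapped Pdia4 at 134 CPM per kb.

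**Figure D1:**
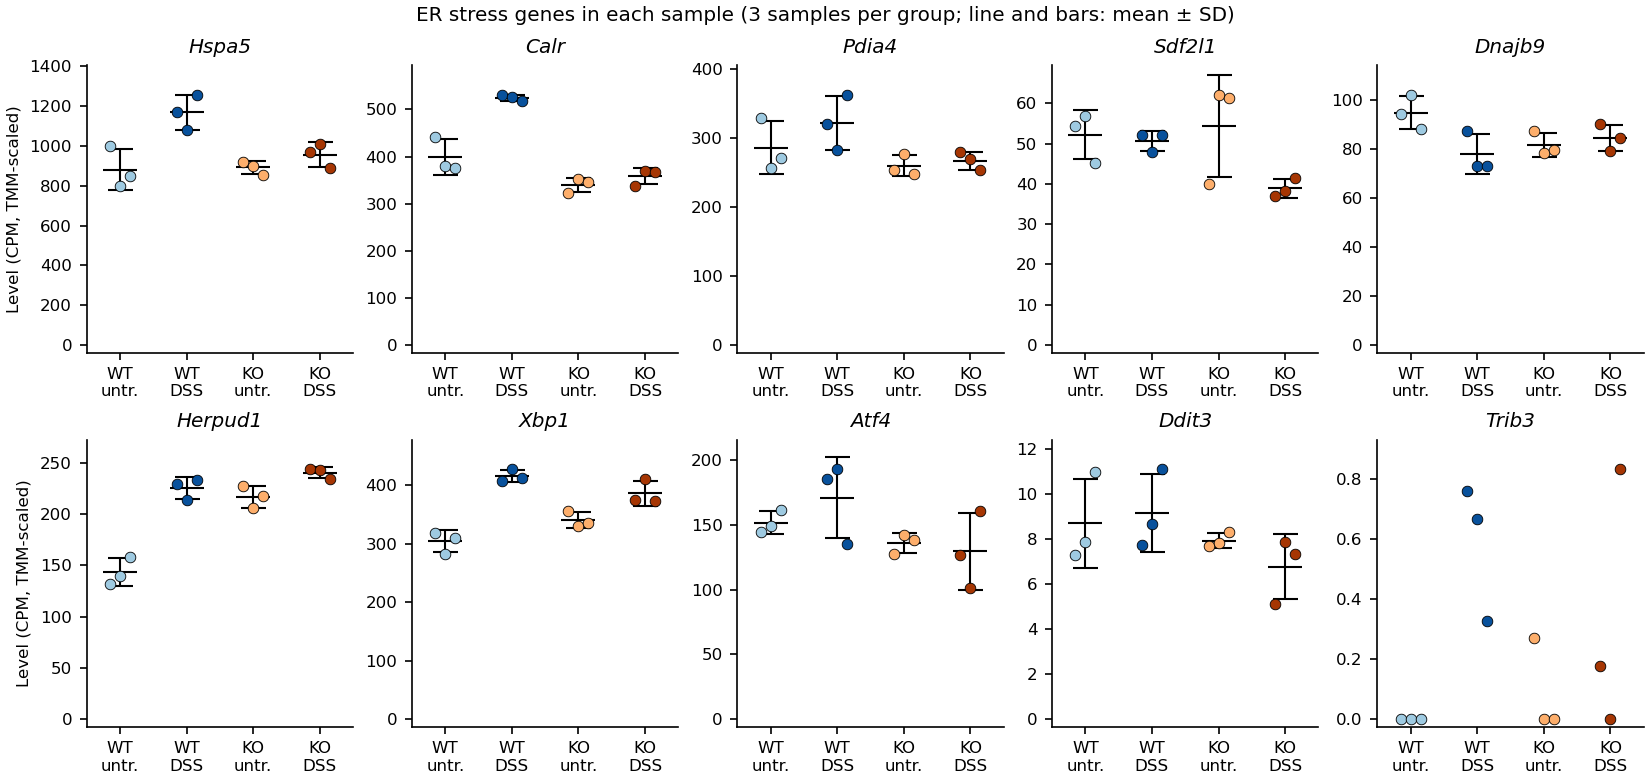
Level of each of the 10 genes (CPM scaled by TMM, vertical axes from 0) in every sample of the 4 groups, with points for samples and lines and bars for the mean and SD of 3 samples (points only for Trib3). Herpud1 lies at 132 to 158 CPM in untreated WT and at 206 CPM or more in the other 9 samples, while Calr is highest in DSS WT.

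With DSS in WT mice, 4 of the 9 genes that could be tested rose: Herpud1, Xbp1, Hspa5 and Calr. The other 5 did not pass, among them the stress transcription factors Atf4 and Ddit3. Across all 12522 genes tested, 6.3% passed in this comparison, 2.8% as higher and 3.5% as lower. The samples of the 4 raised genes did not overlap between the groups, and 1 further gene, Dnajb9, was lower in every DSS sample, beside 20.6% of all genes without overlap, 10.7% higher and 9.96% lower. The median log2 change of the 9 genes was 0.17, beside 0.01 for all genes tested. Trib3, the member left out by the filter on low counts, is given by its counts further on.

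Herpud1 encodes an ER membrane protein that assembles the ubiquitin ligase complex of ER-associated degradation (ENSMUSG00000031770.14, GRCm38 chromosome 8, 94386438 to 94395377, plus strand). It was at 132, 139.9 and 158 CPM in untreated WT and at 229, 214 and 233 CPM in DSS WT. In KO it was at 227, 206 and 217 CPM untreated and at 243, 243 and 234 CPM after DSS. Untreated WT thus stood below each of the other 9 samples. The log2 change with DSS in WT was 0.65 (SE 0.10, 1.57-fold, edgeR adjusted p = 0.000616).

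Xbp1 encodes the transcription factor that IRE1 activates by splicing its mRNA (ENSMUSG00000020484.17, chromosome 11, 5520659 to 5525893, plus strand). Gene counts do not separate spliced from unspliced mRNA. It was at 319, 283 and 311 CPM in untreated WT and at 408, 427 and 413 CPM in DSS WT. In KO it was at 356, 330.3 and 335 CPM untreated and at 376, 412 and 373 CPM after DSS. The groups did not overlap within either genotype, and all 3 untreated KO samples were above all untreated WT samples. The log2 change in WT was 0.45 (SE 0.09, 1.37-fold, edgeR adjusted p = 0.00473).

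Hspa5 encodes BiP, the main Hsp70 chaperone of the ER (ENSMUSG00000026864.12, chromosome 2, 34771970 to 34777547, plus strand). It was at 998, 799 and 848 CPM in untreated WT and at 1171, 1080 and 1255 CPM in DSS WT. In KO it was at 920, 901 and 856 CPM untreated and at 969, 1012 and 889.9 CPM after DSS. DSS WT stood above every other sample, and the other 3 groups overlapped. The log2 change in WT was 0.41 (SE 0.10, 1.33-fold, edgeR adjusted p = 0.0202). This call was lost without untreated WT replicate 2 (adjusted p = 0.0879), DSS WT replicate 1 (0.0761) or DSS WT replicate 3 (0.107), and with only the 2 groups in the fit (0.104), over a range of 0.00364 to 0.107 for 17 alternatives.

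Calr encodes calreticulin, a lectin chaperone of glycoproteins that also binds calcium (ENSMUSG00000003814.8, chromosome 8, 84841850 to 84846934, minus strand). It was at 442, 380 and 376 CPM in untreated WT and at 530.1, 527 and 518 CPM in DSS WT. In KO it was at 323, 353 and 345 CPM untreated and at 338, 369.6 and 367 CPM after DSS. All 6 KO samples were below all 6 WT samples. The log2 change in WT was 0.40 (SE 0.09, 1.32-fold, edgeR adjusted p = 0.0150). This call was lost without untreated WT replicate 2 (0.0709), DSS WT replicate 1 (0.0690) or DSS WT replicate 2 (0.0601), and with only the 2 groups in the fit (0.0855), over a range of 0.0016 to 0.0855. Of the 50-base words in Calr exons, 0.343% also occur in the pseudogene Calr-ps.

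None of the remaining members passed with DSS in WT. Pdia4, a disulfide isomerase, ranged from 257 to 329 CPM in untreated WT and from 283 to 362 CPM in DSS WT, with a log2 difference of 0.17 (edgeR adjusted p = 0.524). Sdf2l1, a component of ER chaperone complexes, was at 45.3 to 56.9 CPM untreated and 47.9 to 52.1 CPM after DSS (log2 difference -0.04, adjusted p = 0.952). Both genes overlapped between the groups. Dnajb9, a J-domain cochaperone of BiP, was at 94.3, 102 and 88.4 CPM in untreated WT and at 87.5, 73.2 and 73.1 CPM in DSS WT. Its groups did not overlap, in the direction opposite to the 4 genes above, but the log2 difference of -0.28 did not pass (edgeR adjusted p = 0.222). Of its 50-base words, 5.5% are shared with Gm6568.

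Atf4 encodes a transcription factor controlled mainly by translation. It was at 144, 149 and 162 CPM in untreated WT and at 185, 193 and 135 CPM in DSS WT, where replicate 3 was lower than every untreated sample. The log2 difference was 0.17 (95% interval -0.17 to 0.52, edgeR adjusted p = 0.686). Ddit3 encodes CHOP, a transcription factor linked to cell death under prolonged stress, and was covered by only 29 to 71 counts per sample. It was at 7.29, 7.88 and 10.97 CPM in untreated WT and at 7.75, 8.67 and 11.1 CPM in DSS WT. The log2 difference of 0.07 had a wide interval (-0.52 to 0.67, edgeR adjusted p = 0.950), and 4.38% of Ddit3 50-base words also lie in Mars or a second annotated Ddit3 gene. Trib3, a pseudokinase gene induced by ATF4 and CHOP, had 0, 0 and 0 counts in untreated WT and 5, 5 and 2 counts in DSS WT. In KO it had 2, 0 and 0 counts untreated and 1, 0 and 6 counts after DSS. Counts of 0 allow up to 3 counts per library, which covers counting error only, so no fold change was calculated. In untreated WT these 3 counts are 0.387 to 0.474 CPM by library totals without TMM scaling, unlike the other CPM values.

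**Figure D2:**
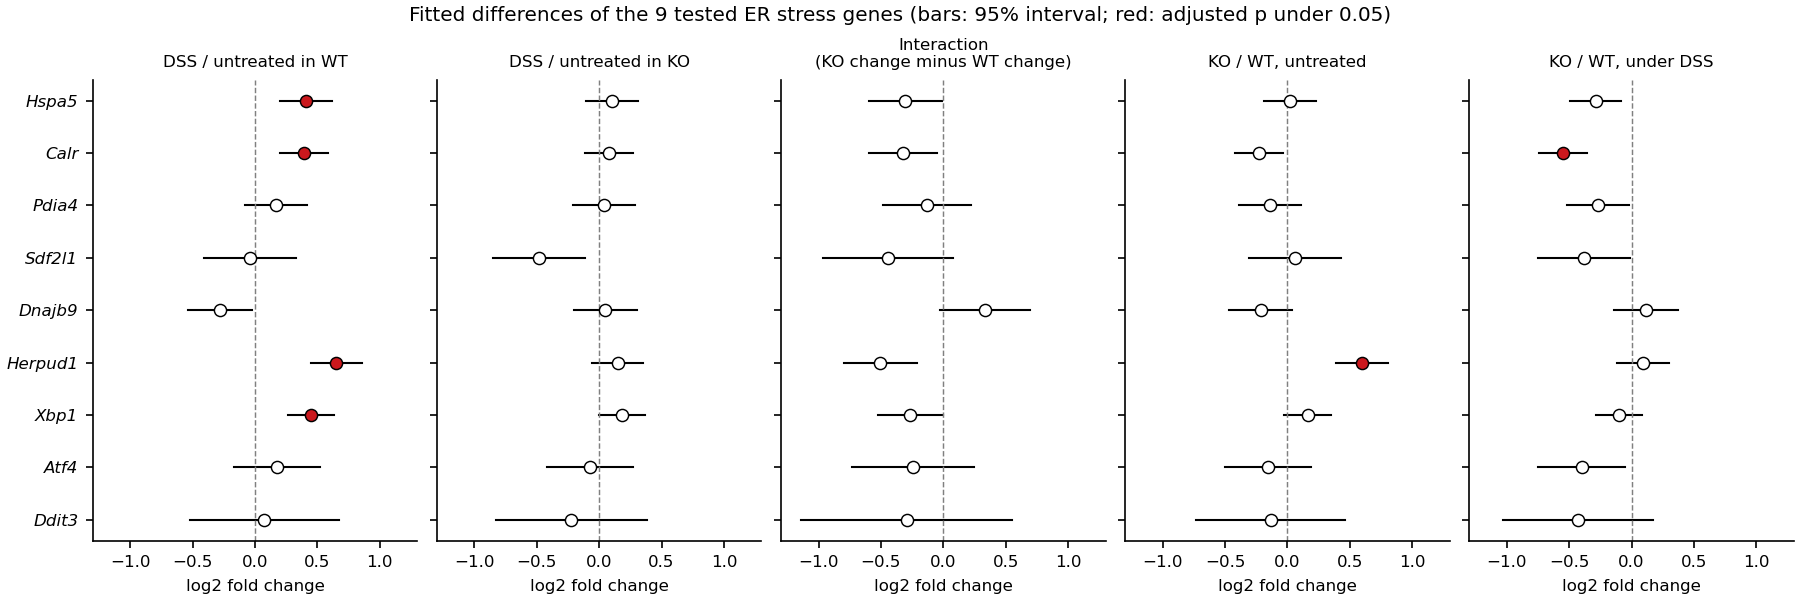
Fitted log2 fold change (horizontal axes) of the 9 tested genes in the 5 comparisons, with bars for 95% intervals and red points for an edgeR adjusted p under 0.05. Herpud1, Xbp1, Hspa5 and Calr are red for DSS in WT, Herpud1 between the untreated genotypes and Calr between the genotypes under DSS, and no point is red for DSS in KO or for the interaction.

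DSS in KO mice gave no call among the 9 genes with edgeR. One of them, Sdf2l1, had an unadjusted p under 0.05, and DESeq2 also called 0, beside 800 of all 12522 genes. With edgeR, 3.92% of all genes tested passed in this comparison, 1.88% as higher and 2.04% as lower. Xbp1 and Herpud1 were higher in all DSS samples than in all untreated KO samples, and 24.3% of all genes tested were separated, 12% upward and 12.3% downward. The log2 differences were 0.18 for Xbp1 (95% interval -0.000034 to 0.37, adjusted p = 0.315) and 0.15 for Herpud1 (interval -0.06 to 0.35, adjusted p = 0.512). For Hspa5 it was 0.10 (interval -0.11 to 0.31) and for Calr 0.07 (interval -0.12 to 0.27). The intervals leave room for changes of up to 0.27 to 0.37 in these 4 genes. Sdf2l1 was at 39.9, 62.0 and 61.2 CPM in untreated KO and at 37.0, 38.1 and 41.6 CPM in DSS KO. Replicate 1 of untreated KO overlapped the DSS samples, and the log2 difference was -0.48 (SE 0.17, edgeR adjusted p = 0.160). Without that replicate it was -0.67 and passed (adjusted p = 0.0422, range over alternatives 0.0422 to 0.456).

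Among untreated mice, KO differed from WT in 1 of the 9 genes. Herpud1 averaged 217 ± 10.6 CPM (SD, n = 3) in KO and 143 ± 13.5 CPM (SD, n = 3) in WT, a log2 difference of 0.60 (SE 0.10, 1.51-fold, edgeR adjusted p = 0.00299). Of all genes tested, 3.48% passed, 1.72% as higher and 1.76% as lower. This comparison uses the same untreated WT samples as that of DSS in WT, so the Herpud1 results of both rest on the low level in those samples. Its call held under all 17 alternatives, with a highest adjusted p of 0.0447. Xbp1 was separated in the same direction (log2 difference 0.16, adjusted p = 0.419). Calr, Atf4 and Dnajb9 were separated in the other, with log2 differences of -0.23, -0.16 and -0.22 that did not pass, while 19.3% of all genes were separated, 9.81% upward and 9.52% downward. For Hspa5 the log2 difference was 0.02 (interval -0.19 to 0.22).

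Under DSS, Calr was lower in KO, at 358 ± 17.4 CPM (SD, n = 3) against 525 ± 6.46 CPM (SD, n = 3) in WT. The log2 difference was -0.55 (SE 0.09, 0.683-fold, edgeR adjusted p = 0.00343), and it passed under all 17 alternatives (highest adjusted p 0.0247). It was the 1 call among the 9 genes, beside 3.11% of all genes tested, 1.77% higher and 1.34% lower. Hspa5, Pdia4 and Sdf2l1 were also below WT in every sample but did not pass. Herpud1 was above WT in every sample and did not pass either. Of all genes, 22.3% were separated, 11.7% upward and 10.6% downward. For Hspa5 the log2 difference was -0.29 (edgeR adjusted p = 0.149). With only the 2 DSS groups in the fit, Hspa5 passed at an adjusted p of 0.0494 (range over alternatives 0.0494 to 0.415). Atf4 was at 126, 101.1 and 161 CPM in DSS KO, overlapping WT, with a log2 difference of -0.40 (adjusted p = 0.247). Of the 9 genes, 7 were lower and 2 higher in KO, with a median log2 difference of -0.29, beside 0.00 for all genes. Herpud1, in contrast, was at 240.2 ± 5.09 CPM (SD, n = 3) in KO and 225 ± 10.3 CPM (SD, n = 3) in WT, a log2 difference of 0.09 (interval -0.11 to 0.30).

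**Figure D3:**
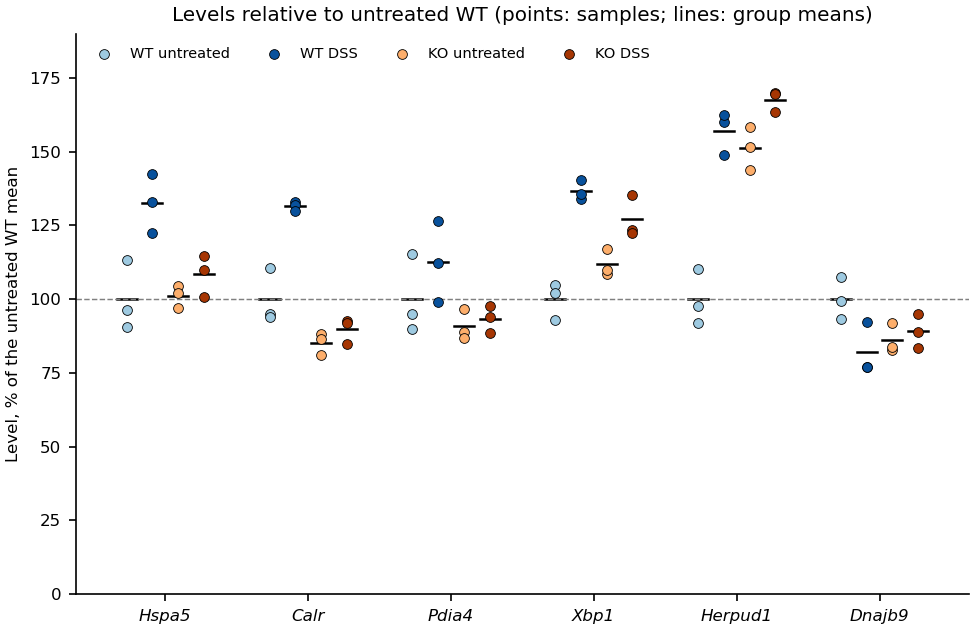
Level of Hspa5, Calr, Pdia4, Xbp1, Herpud1 and Dnajb9 in each sample (points) as a percentage of the untreated WT mean (vertical axis from 0, dashed line at 100), with short lines for group means. Mean Herpud1 stands at 157% in DSS WT, 151% in untreated KO and 168% in DSS KO, while mean Calr stands at 132% in DSS WT and at 85.2% and 89.8% in untreated and DSS KO.

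Whether DSS acted differently in the genotypes was tested as the DSS change in KO minus that in WT. No member passed with edgeR, while 4 had an unadjusted p under 0.05 (Herpud1, Calr, Hspa5 and Xbp1) and DESeq2 called 1, Herpud1. Of all genes tested, 1.7% passed by adjusted p with edgeR, 1.17% above and 0.527% below zero. DESeq2 called more, 360 of all 12522 genes. No share of all genes at an unadjusted p under 0.05 is given for any comparison, so counts at that threshold have nothing beside them. The difference for Herpud1 was -0.50 (SE 0.14, 95% interval -0.80 to -0.21, edgeR adjusted p = 0.0973), and that for Calr was -0.32 (adjusted p = 0.352). Hspa5 and Xbp1 differed by -0.31 (adjusted p = 0.441) and -0.27 (adjusted p = 0.460). With DESeq2, Herpud1 differed by -0.50 (adjusted p = 0.0241), and without untreated WT replicate 3 the edgeR value was -0.58 (adjusted p = 0.0205, range over alternatives 0.0205 to 0.230). Of the 9 genes, 8 had a negative difference and Dnajb9 a positive one (0.33, adjusted p = 0.527), and the median was -0.29 beside -0.01 for all genes. The presence of calls in WT and not in KO is therefore not shown to be a difference between the genotypes for any member by the edgeR test.

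Over the 12 samples, the members differed in how they moved together. Log2 CPM of Hspa5 correlated with Pdia4 (r = 0.828), Xbp1 (r = 0.805) and Calr (r = 0.787), and Xbp1 with Herpud1 (r = 0.789). Dnajb9 ran opposite to Xbp1 (r = -0.691), Herpud1 (r = -0.635) and Hspa5 (r = -0.514). These are descriptions over 12 samples that share the 4 groups. Of 8860 genes ranked, those most like Hspa5 were Copa, a coat protein of Golgi vesicles (r = 0.927), Agtrap (r = 0.917), Lgr4 (r = 0.901) and Aspg (r = 0.9). Those most like Ddit3 were Foxk2 (r = 0.84), Hmbox1 (r = 0.839), Zc2hc1a (r = 0.829) and Lacc1 (r = 0.808). Their Spearman rank correlations with Ddit3 were 0.888, 0.552, 0.748 and 0.72 in this order. Both sets were picked for the highest r, and whether unrelated genes reach such values was not tested.

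The other genes of the pathway were taken from lists by function. Of 26 tested ER chaperones and folding enzymes besides the members, 1 was higher with DSS in WT and 0 were lower, a share of 3.85% beside 6.3% of all genes. That gene was Hyou1, a BiP nucleotide exchange factor, at 54.0 ± 7.78 CPM (SD over 3 samples) in untreated WT, 88.0 ± 14.3 CPM in DSS WT, 41.8 ± 6.12 CPM in untreated KO and 48.1 ± 5.78 CPM in DSS KO. Its log2 change in WT was 0.70 (SE 0.17, edgeR adjusted p = 0.0209). The call was lost without untreated WT replicate 2 (0.0741) or 3 (0.0621), DSS WT replicate 1 (0.0822) or 3 (0.111), and with only the 2 groups in the fit (0.0512). Under DSS, Hyou1 (-0.87, adjusted p = 0.0110) and Creld2, a secretory-pathway protein (-0.71, adjusted p = 0.0127), were lower in KO, the 2 lower of the 26, with 0 higher, a share of 7.69% beside 3.11% of all genes. Hyou1 lost that call without KO replicate 2 (0.0627) or 3 (0.0569) or WT replicate 1 (0.0575) or 3 (0.0661), and Creld2 without KO replicate 2 (0.0580) or 3 (0.0628) or WT replicate 3 (0.0767). In the other 3 comparisons edgeR and DESeq2 called 0 of the 26, with 3, 3 and 2 at an unadjusted p under 0.05 for DSS in KO, for the genotypes without treatment and for the interaction.

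Of 23 tested genes of ER-associated degradation, edgeR called 0 in each of the 5 comparisons. In the order DSS in WT, DSS in KO, genotypes untreated, genotypes under DSS and interaction, 2, 3, 2, 3 and 2 had an unadjusted p under 0.05, and DESeq2 called 0, 2, 0, 1 and 0. Over all 12522 genes, DESeq2 called 800 for DSS in KO and 661 for the genotypes under DSS. Of 30 tested genes of ER translocation and signal peptide processing, edgeR and DESeq2 called 0 in every comparison, with 2, 3, 1, 5 and 0 at an unadjusted p under 0.05. Herpud1 thus rose with DSS in WT without a call among the listed degradation genes.

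Of 21 genes of stress sensing and eIF2α regulation, 1 was higher with DSS in WT and 2 with DSS in KO, and 0 were lower. These shares of 4.76% and 9.52% stand beside 6.3% and 3.92% of all genes. Ppp1r15a, which encodes GADD34, the subunit that directs dephosphorylation of eIF2α, rose in both genotypes. The log2 change in WT was 1.02 (SE 0.13, edgeR adjusted p = 0.00014). In KO it was 0.71 (SE 0.13, adjusted p = 0.00516). It averaged 46.8 ± 5.12 and 94.9 ± 3.8 CPM (SD, n = 3) in untreated and DSS WT and 62.2 ± 6.48 and 101.8 ± 6.96 CPM in untreated and DSS KO. Eif2ak2, the double-stranded RNA sensor PKR, passed in KO (log2 change 0.55, adjusted p = 0.0468). With the replicate number as a block it did not (adjusted p = 0.0593), and the call was lost in 10 of 12 fits that each left out 1 sample, up to an adjusted p of 0.202; the exceptions were untreated KO replicate 1 and untreated WT replicate 3. Between the genotypes, and for the interaction, edgeR called 0 of the 21, with 2, 3 and 1 at an unadjusted p under 0.05, and DESeq2 called 0, 2 and 0. Between the genotypes under DSS, DESeq2 called 661 of all 12522 genes.

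Of 33 tested targets of ATF4 and CHOP, 4 were higher and 2 lower with DSS in WT, and 3 were higher and 2 lower with DSS in KO. These shares of 18.2% and 15.2% stand beside 6.3% and 3.92% of all genes. Nupr1, a small stress-induced chromatin protein, rose by 1.54 (SE 0.16, edgeR adjusted p = 1.66e-05) in WT and 1.10 (SE 0.15, adjusted p = 0.000778) in KO. Wars, tryptophanyl-tRNA synthetase and also an interferon-inducible gene, rose by 0.91 (SE 0.09, adjusted p = 1.78e-05) in WT, from 273 ± 15.5 to 513 ± 38.8 CPM (SD, n = 3), and was at 292 ± 10.5 and 350.5 ± 21.6 CPM in untreated and DSS KO. Ppp1r15a and Atf3 were the others called higher in WT, and with Nupr1 they were the 3 called higher in KO. Ppp1r15a is also counted in the list of stress sensing and eIF2α regulation, and Atf3 in that of immediate early genes. These lists are therefore not separate. The 2 lower genes in WT were the amino-acid and one-carbon genes Mthfd2 (-1.35, adjusted p = 0.0161) and Slc1a4 (-1.12, adjusted p = 0.0162). Mthfd2 lost its call without DSS WT replicate 1 (0.0761) or 2 (0.0629), and Slc1a4 without DSS WT replicate 1 (0.0668) or 3 (0.0840).

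In KO the 2 lower ATF4 targets were Phgdh (-1.12, adjusted p = 0.0202) and Slc1a4 (-0.99, adjusted p = 0.0444). Slc1a4 did not pass with the replicate block (adjusted p = 0.0581), and it lost its call without any untreated KO replicate, DSS KO replicate 1 or 3, untreated WT replicate 2 or DSS WT replicate 1 (0.0548 to 0.168). Phgdh lost its call without untreated KO replicate 1 (0.0613) or 3 (0.0788) or DSS KO replicate 1 (0.0654), 2 (0.0709) or 3 (0.0775). In untreated mice KO was higher in Nupr1 and Gdf15 and lower in Gars, with log2 differences of 0.65 (adjusted p = 0.0323), 1.49 (0.0190) and -0.50 (0.00808). These 3 calls were 9.09% of the 33, beside 3.48% of all genes. Nupr1 did not pass with the replicate block (0.0637), and lost its call without any untreated KO replicate, untreated WT replicate 1 or 3 or DSS WT replicate 1 (0.0546 to 0.110). Gdf15 lost it without untreated KO replicate 2 (0.0613) or 3 (0.0932) or untreated WT replicate 1 (0.0789) or 2 (0.0517), and Gars without untreated KO replicate 1 (0.0537) or 3 (0.0513). With only the 2 groups in the fit, the adjusted p was 0.136 for Nupr1, 0.0530 for Gdf15 and 0.0683 for Gars. Under DSS, Wars was lower in KO (-0.55, adjusted p = 0.00417), the 1 call of the 33 (3.03%, beside 3.11% of all genes). The DSS change of Wars also differed between the genotypes by -0.65 (SE 0.13, adjusted p = 0.0159). That call was lost without untreated KO replicate 2 (0.0576), DSS KO replicate 1 (0.0576) or 2 (0.0511), untreated WT replicate 2 (0.0529) or DSS WT replicate 1 (0.0695).

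**Figure D4:**
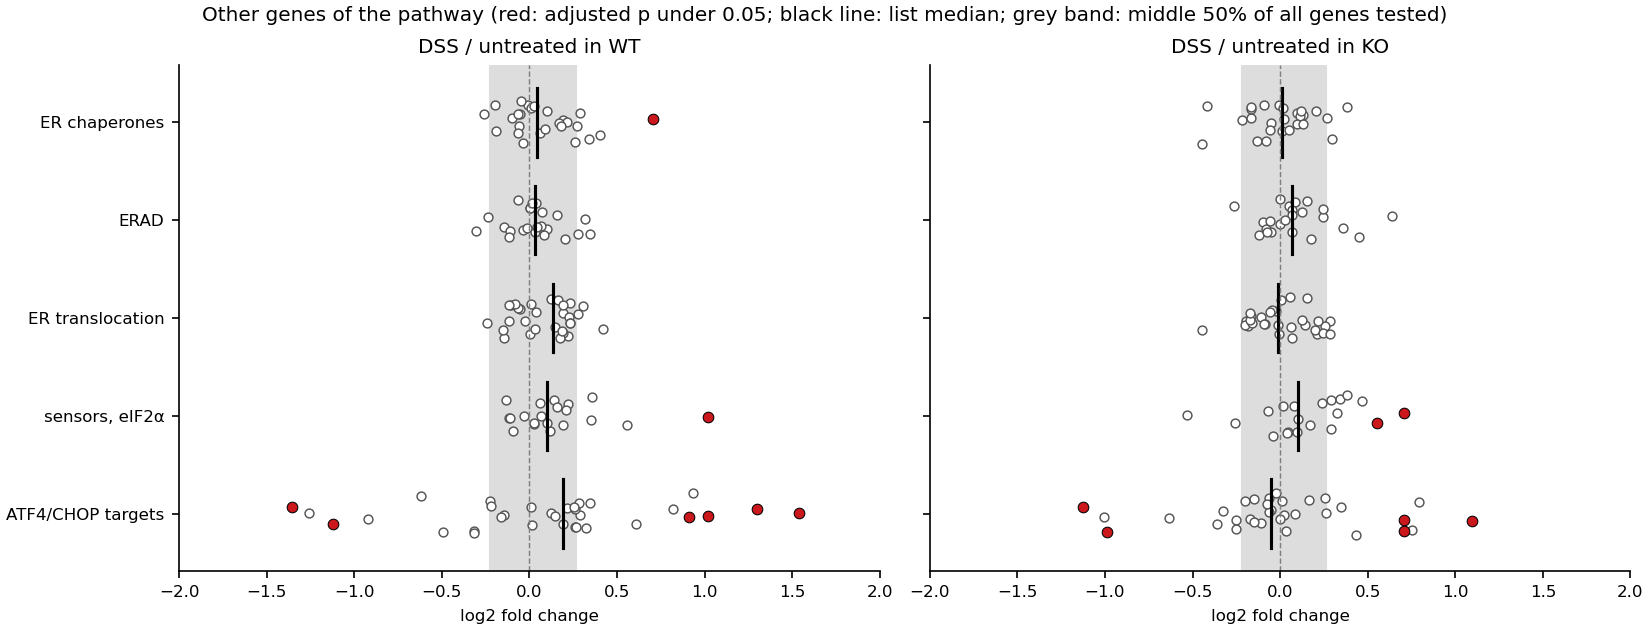
Log2 fold change with DSS (horizontal axes) of each tested gene in 5 lists of the pathway, in WT and in KO, with red points for an edgeR adjusted p under 0.05, black lines for list medians and a grey band for the middle 50% of all genes tested. The ATF4 and CHOP targets hold 6 red points of 33 in WT and 5 in KO, while the lists of ER-associated degradation and ER translocation hold 0.

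Heat-shock genes, most of them cytosolic, and immediate early genes moved in the same libraries. Both kinds respond to handling and to stress of other kinds. Of 12 tested heat-shock genes, 3 were higher with DSS in WT (1 to 2 when any 1 sample was left out). With DSS in KO, 2 were higher and 2 lower. These shares of 25% and 33.3% stand beside 6.3% and 3.92% of all genes. The calls with the smallest p in WT and KO included Dnajb1, a cytosolic cochaperone, which rose by 0.96 in WT (SE 0.09, edgeR adjusted p = 1.29e-05). Its rise in KO was 0.63 (SE 0.09, adjusted p = 0.00159). Under DSS, 4 of the 12 were lower in KO, a share of 33.3% beside 3.11% of all genes. Hspa1a, whose reads can be shared with its near-identical neighbour Hspa1b, was at 41.6 ± 3.54 CPM (SD over 3 samples) in untreated WT, 51.6 ± 8.97 CPM in DSS WT, 4.11 ± 0.886 CPM in untreated KO and 19.3 ± 1.94 CPM in DSS KO. Untreated KO was lower than untreated WT by a log2 difference of -3.34 (SE 0.21, adjusted p = 9.91e-07). This was the 1 heat-shock call by edgeR between the untreated genotypes (8.33%, beside 3.48% of all genes), so Hspa1b was not called there. How reads were divided between Hspa1a and Hspa1b was not tested. The difference of Hspa1a in DSS change between the genotypes was 1.92 (SE 0.28, adjusted p = 0.00173), the 1 heat-shock call for the interaction. In KO, Hsp90aa1 and Hspd1 were the 2 lower genes, and neither passed with the replicate block (adjusted p = 0.0792 and 0.0566). Hsp90aa1 lost its call in 8 of 12 fits that each left out 1 sample (without any untreated KO replicate, DSS KO replicate 1 or 2, or any DSS WT replicate, 0.0699 to 0.224), with DESeq2 size factors (0.0535) and with only the 2 groups in the fit (0.0620). Hspd1 lost it in 9 of 12 (without any replicate of untreated KO, DSS KO or DSS WT, 0.0588 to 0.193). Their part in the member results was not tested.

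Of 16 tested immediate early genes, 10 were higher with DSS in WT and 7 in KO. In KO compared with WT, 3 were higher without treatment and 1 was lower under DSS. In this order the shares were 62.5%, 43.8%, 18.8% and 6.25%, beside 6.3%, 3.92%, 3.48% and 3.11% of all genes. No interaction was called by edgeR, with 4 at an unadjusted p under 0.05 and 2 called by DESeq2, beside 360 of all 12522 genes by DESeq2. Junb rose by 0.81 in WT (SE 0.08, adjusted p = 1.23e-05) and 0.45 in KO (SE 0.08, adjusted p = 0.00477). The part of these genes in the member results was not tested.

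Markers of other cell types moved between the groups as well, and in bulk RNA fewer cells of a type and less RNA per cell cannot be told apart. Summed absorptive colonocyte markers were 19690 to 23250 CPM in untreated WT, 7978 to 8235 CPM in DSS WT, 12860 to 13890 CPM in untreated KO and 7765 to 8591 CPM in DSS KO. Of these 11 markers, 9 were lower with DSS in each genotype. Summed goblet markers were 19830 to 32150, 15820 to 18130, 14590 to 15870 and 27900 to 31660 CPM in the same order of groups. Of 15 goblet markers, 4 were lower with DSS in WT, whereas 5 were higher with DSS in KO, and 5 had a higher interaction. The sum was carried by a few abundant genes: Clca1 averaged 15510 CPM in untreated WT, 7474 CPM in DSS WT, 6372 CPM in untreated KO and 15530 CPM in DSS KO. Over the 15 markers the median log2 difference with DSS was 0.06 in WT, where 9 were above zero and 6 below, and 0.37 in KO, where 12 were above and 3 below.

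Leukocyte markers summed to 18.4 to 32.8, 61.7 to 64.4, 78.2 to 93.4 and 131 to 185 CPM, in the same order of groups, and 5 of 11 tested were higher with DSS in WT and 5 were higher in untreated KO. Plasma and B cell markers summed to 407 to 534.6, 340.8 to 357, 324 to 382 and 265 to 305 CPM, and Tnfrsf17 was at 0 in all groups. Most of that sum was Sdc1, which epithelial cells also express, at 424, 270.3, 336 and 260.3 CPM. In WT, Igha and Jchain had higher means after DSS. Igha was at 23.0, 45.5, 6.05 and 8.38 CPM and Jchain at 5.18, 10.2, 2.58 and 3.8 CPM. Prdm1 was lower after DSS in WT, at 5.03 CPM untreated and 3.84 CPM after DSS. Of the 5 tested, 3 were above zero and 2 below with DSS in WT. The median log2 difference of the 5 tested was 0.47 with DSS in WT and -0.91 for the genotypes under DSS, with 1 called lower in each. Enteroendocrine markers summed to 102 to 142, 159 to 183, 155 to 174.5 and 131 to 149 CPM. Tac1 alone was at 4.43 CPM in untreated WT and 86.9 CPM in DSS WT, while Chgb was at 50.9 and 29.0 CPM. Of the 8 tested, 1 was called higher and 1 lower with DSS in WT, with a median log2 difference of -0.23. Stromal markers summed to at most 20.9 CPM in any sample, with Lum and Pdgfra at 0 in every group. Epithelial markers showed no call for DSS in either genotype or for KO against WT untreated, and 1 of 8 was lower in KO under DSS. The part of these markers in the member results was not tested.

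**Figure D5:**
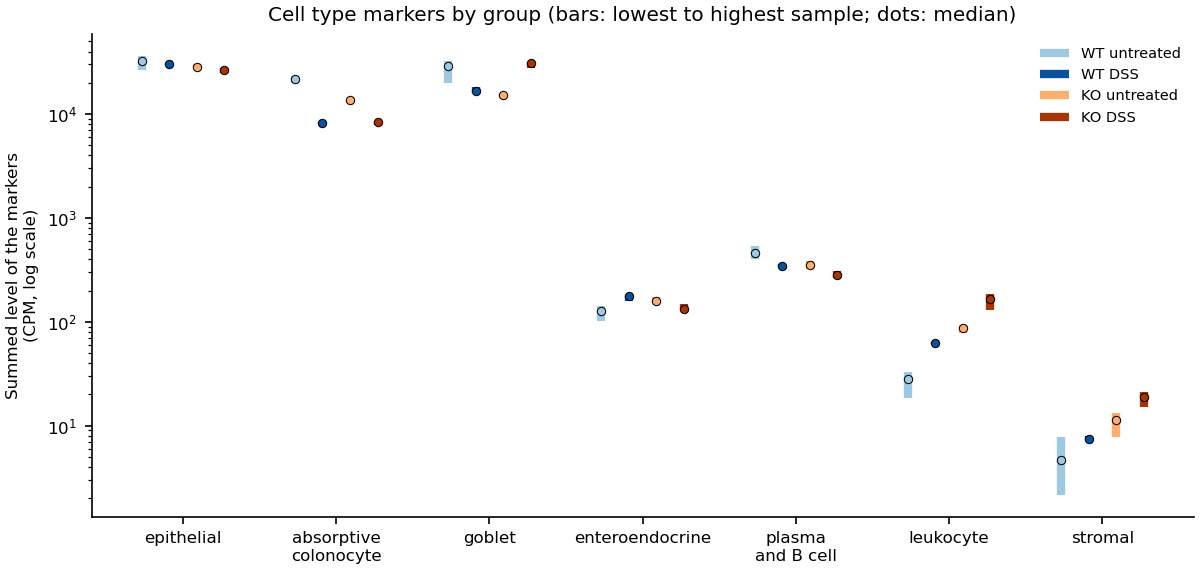
Summed CPM of marker genes for 7 cell types (vertical axis, log scale) by group, with bars from the lowest to the highest of 3 samples and dots for the median, both in the colour of the group. Absorptive colonocyte markers are at most 8591 CPM in the DSS groups, and leukocyte markers are 18.4 to 32.8 CPM in untreated WT and 131 to 185 CPM in DSS KO.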

How the data were processed

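RNA was measured in 12 samples, 3 in each of 4 groups taken from the sample titles. Per the submitters' processing notes, STAR 2.5.2b and featureCounts 1.5.0 were used with GRCm38; the counting options and annotation release are not given in the sources used here. The deposited values are whole-number counts per gene. SMART-seq2 carries no strand information or molecular identifiers. The floor of 3 counts per library, used for Trib3, covers counting error only. The intervals given with log2 differences come from the edgeR fit and also include the spread between replicates. Symbols came from GENCODE M21 (46005 of 46517 identifiers matched).

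edgeR 4.0.16 (R 4.3.3) kept 12522 genes with filterByExpr (99.8% of counts), scaled by TMM, and tested 5 contrasts with the two-sided quasi-likelihood F test over all 12 samples. Genes passed at a Benjamini-Hochberg adjusted p under 0.05 over all genes tested. DESeq2 1.42.0, its size factors, no filter, a replicate block, only the groups compared, and leaving out each sample were tried. The fit was tested on simulated data: for DSS in WT with 12522 genes, 47% of 100 genes changed 2-fold and 80% of 100 changed 4-fold were recovered.

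The members and gene lists were chosen with earlier results of these data known. Text names the 10 members, up to 2 genes called in each direction per list and comparison by smallest p (others that are needed to complete a count were chosen after their values were seen), and for Hspa5 and Ddit3 the 4 genes with the highest Pearson r. Same-numbered samples deviated weakly together for DSS in KO (r = 0.204, 0.106 and 0.127). For DSS in WT the values were 0.0138, 0.12 and 0.128, and between the genotypes they were negative. The main fit was unpaired in every comparison, and the numbers were used only in the replicate block, tried as an alternative. The block gave same-numbered samples of all 4 groups a shared effect, and the labels state no link between such samples. No replicates agreed within sampling noise (chi-square per degree of freedom 6.51 to 27.0). Pairs within untreated WT gave 13.7, 27.0 and 18.4, and pairs within the other groups at most 15.0. Untreated WT is the reference for DSS in WT and for KO against WT untreated. The labels call replicates biological but name no mice.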

Additional observations from a re-analysis of the deposited data

How the results depend on the processing

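Single-gene values of the members were recomputed under 756 combinations of result and alternative, of which 732 kept direction and side of the threshold, 8 lost a call, 4 gained one and 12 changed sign. All 12 changes of sign were in genes without a call and came from leaving out 1 sample; the causes of these and of the changed counts below were not tested. Their leave-one-out log2 ranges were, with DSS in WT, -0.0854 to 0.271 for Ddit3 and -0.137 to 0.0227 for Sdf2l1; with DSS in KO, -0.262 to 0.0719 for Atf4 and -0.00013 to 0.0948 for Dnajb9; and for KO against WT untreated, -0.0536 to 0.112 for Hspa5, -0.251 to 0.0674 for Ddit3 and -0.0446 to 0.242 for Sdf2l1.

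Counts over all genes moved by more than 1.5 times as follows. With only the groups compared they were 467 (of 789) for DSS in WT and 195 (of 436) for KO against WT untreated. With DESeq2 and with no filter they were 800 and 776 (491) for DSS in KO, 790 and 703 (436) for KO against WT untreated, 661 and 642 (390) for KO against WT under DSS, and 360 and 356 (213) for the interaction. Leaving out 1 sample gave 483 to 958, 235 to 710, 212 to 725, 160 to 566 and 152 to 350 in the order DSS in WT, DSS in KO, genotypes untreated, genotypes under DSS and interaction. Members called were 2 with only the groups compared for DSS in WT and for KO against WT under DSS, and 1 with DESeq2 for the interaction. Leave-one-out counts of members were 2 to 4 for DSS in WT (2 without untreated WT replicate 2 or DSS WT replicate 1) and 0 to 1 for DSS in KO and for the interaction.

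For the replicate block, members called were 4, 0, 1, 1 and 0 in that order, as without it, and all genes called were 695, 409, 345, 290 and 186. It lowered the list counts for DSS in KO from 2 to 1 of the sensors and eIF2α genes and from 4 to 2 of the heat-shock genes. By at most 1.5 times, it also lowered ATF4 targets from 5 to 4 for DSS in KO and from 3 to 2 between untreated genotypes, and heat-shock genes from 3 to 2 for DSS in WT and from 4 to 3 under DSS. Beside the calls given with the results, it changed no other call of a named gene. DESeq2 size factors moved the median of all genes by -0.0113 to 0.00764.

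List counts also moved in fits other than leave-one-out. With only the groups compared there was 0 chaperone for DSS in WT, 1 degradation gene for DSS in KO, 0 ATF4 targets and 0 immediate early genes for KO against WT untreated, and 2 immediate early genes for KO against WT under DSS. DESeq2 called 2 degradation genes for DSS in KO and 1 under DSS, 2 sensors under DSS, 2 heat-shock genes for KO against WT untreated and 2 immediate early genes for the interaction. With no filter there were 1 degradation gene and 1 sensor for DSS in KO, 2 sensors for DSS in WT, 2 ATF4 targets for the interaction, and 2 immediate early genes under DSS and for the interaction.

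Leave-one-out list counts were, for DSS in WT, 0 to 1 chaperones, 0 to 1 degradation genes, 1 to 2 sensors and 1 to 2 heat-shock genes; for DSS in KO, 0 to 1 degradation genes, 1 to 2 sensors, 2 to 5 ATF4 targets, 2 to 4 heat-shock genes and 3 to 10 immediate early genes; for KO against WT untreated, 0 to 3 ATF4 targets and 1 to 4 immediate early genes; under DSS, 0 to 2 chaperones, 0 to 1 degradation genes, 0 to 1 sensors, 1 to 5 heat-shock genes and 0 to 2 immediate early genes; and for the interaction, 0 to 2 ATF4 targets and 0 to 4 immediate early genes. Depth limits Ddit3 (29 to 71 counts per sample) and Trib3 (0 to 6 counts) most.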
